A study of Homo sapiens with 14 samples.

Results

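Ribosome profiling (Ribo-seq) sequences the stretches of RNA that ribosomes shield from nuclease, and it was used here to compare cells depleted of the RNA-editing enzyme ADAR1 with control cells. The comparison was made over 4 of the 14 libraries of the series: the Ribo-seq libraries of cells given scrambled siRNA (control, replicates 1 and 2) and of cells given siADAR1 (KD, replicates 1 and 2). All came from cells labelled HepG2, an established human liver carcinoma line, which according to the labels carried either siRNA by stable transfection. The study also holds 2 RNA-seq libraries, with 1 per condition, and 8 libraries of PARS-seq, a probing of RNA structure with nucleases. Membership followed from the sample labels, and KD of each replicate number was set against control of the same number. Genes were kept when their mean over the 4 Ribo-seq libraries was at least 10 RPKM (reads scaled to transcript length and library size), which left 4876 of 21574 genes, or 22.6%. The study calls the Ribo-seq libraries biological replicates, but the labels do not say that they came from separate cultures, so that p-values measure only the spread between these samples.

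ADAR1, the product of ADAR, converts adenosine to inosine in double-stranded RNA, much of it formed by inverted Alu repeats. Editing can weaken or strengthen the pairing of such RNA, depending on the base opposite, and unedited duplexes can be bound by cytosolic sensors such as MDA5 and PKR, which switch on interferon genes and can halt translation. The density of ribosome-protected reads on a transcript reflects both how much of the transcript there is and how many ribosomes it carries.

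The target of the siRNA was examined first. ADAR, on the minus strand of chr1:154554171-154600489 in GRCh37, was at 43.6 RPKM in control replicate 1 and 8.73 in KD replicate 1, from 308 and 87 reads. In replicate 2 it was at 55.5 RPKM in control and 44.0 in KD, from 1307 and 751 reads. ADAR was thus 80.0% lower in KD replicate 1 but only 20.6% lower in KD replicate 2, whose level as deposited lay just above that of control replicate 1. After centring (below all log2 ratios are KD over control of RPKM + 1 within a replicate, minus the median over the 4876 genes) the ADAR ratios were -2.15 and -0.61. In replicate 1 only 10 genes had a lower ratio than ADAR, against 639 genes (13.1%) in replicate 2. The mean log2 difference of -1.38 gave p = 0.667 in an exact two-sided permutation test of 2 libraries against 2, for which 0.333 is the smallest p possible. Without KD replicate 1 the mean log2 difference was -0.14, and without KD replicate 2 it was -2.64. In RNA-seq ADAR went from 54.8 RPKM in control to 15.4 in KD. The library labelled KD replicate 2 therefore carried much more ADAR signal than the other KD library, and every direction given for it below rests on its label. ADARB1, which encodes the related deaminase ADAR2, was below the minimum level for testing, with 2.81 and 7.47 RPKM in replicate 1 and 9.90 and 6.52 in replicate 2.

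The HepG2 label was then compared with the genes that define liver cells. Of 12 liver markers, 7 were listed at 0 in all 4 Ribo-seq libraries: the plasma proteins ALB, AFP, TTR, APOA1, FGB and SERPINA1 and the transcription factor FOXA2. In RNA-seq the same 7 were at or near 0 in both conditions, at most 0.08 RPKM (APOA1 in control). Only 2 of the 12, the epithelial keratins KRT8 and KRT18, had a mean of at least 10 RPKM, with median ratios of -0.15 and 0.18 and 0 past 1.5-fold in both. KRT8 was at 268 and 202 RPKM in control and KD of replicate 1 and at 84.1 and 111 in replicate 2. Of 52 secreted plasma proteins only 3 were tested, namely C3, CLU and VTN; their median ratio was 0.11 in replicate 1 and 0.48 in replicate 2, and none passed 1.5-fold in both. The defining liver markers were therefore absent from these libraries, and the samples are called here by their label. Of the 8 fibroblast and stellate cell markers 3 were tested, with a summed level over all 8 of 167 RPKM in control and 114 in KD of replicate 1, and 52.6 and 52.0 in replicate 2. The most abundant, LUM (an extracellular matrix proteoglycan), was at 112 and 80.4 RPKM in replicate 1, at 0.28 in control replicate 2 and listed at 0 in KD replicate 2, which is 2 and 0 reads, and no fold is given. Of the tested members of that list 0 passed 1.5-fold in both replicates. Their median ratio in replicate 1 was -0.43, and in replicate 2 the median fell on LUM and is not given. No leukocyte (8 genes), endothelial (5), red blood cell (6) or squamous epithelial (5) marker reached 10 RPKM, and the highest summed level of any of these lists in a library was 1.00 RPKM.

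The replicates differed from each other more than KD differed from control. The deposited values fall on whole numbers of reads, which gave library totals of 995682 reads (control) and 1404542 (KD) for replicate 1, and 3322918 (control) and 2405072 (KD) for replicate 2. The median tested gene had 70.5, 96, 168 and 143 reads in that order, so that counting alone put a median standard error of 0.23 on a log2 ratio in replicate 1 and 0.16 in replicate 2. Across genes, the log2 levels of control and KD correlated with Pearson's r = 0.952 within replicate 1 and 0.927 within replicate 2, against 0.589 between the controls and 0.658 between the KD libraries. Genes are not independent replicates and no p is attached. An entry of the table that names LOC100507412 and RN5-8S1 (5.8S ribosomal RNA) together, with a recovered length of 16302 bases, took 24.5% and 26.7% of the reads in control and KD of replicate 1 but 42.1% and 36.2% in replicate 2. The reads cannot be divided between the names of this entry. Structured and small noncoding RNAs other than miRNAs took 0.310% and 0.311% in replicate 1, and 1.62% and 1.45% in replicate 2. Some genes had reads in only a single replicate. With these values in view, 9 genes were found above 20 RPKM in both libraries of replicate 1 and at 0 in both of replicate 2. Of these 9, 8 lie within chr6:29909037-33386094 in GRCh37, an interval drawn from the genes themselves. All 8 tested genes found by name in it were at 0 in both replicate 2 libraries, and 0 were at 0 in replicate 1. TUBB, for example, was at 726 and 951 RPKM in replicate 1 and at 780 and 892 in RNA-seq. The reverse pattern was shown by 35 genes, 24 of them small RNAs. These differences run between replicates and not between KD and control, and their part in the results was not tested.

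**Figure D1:**
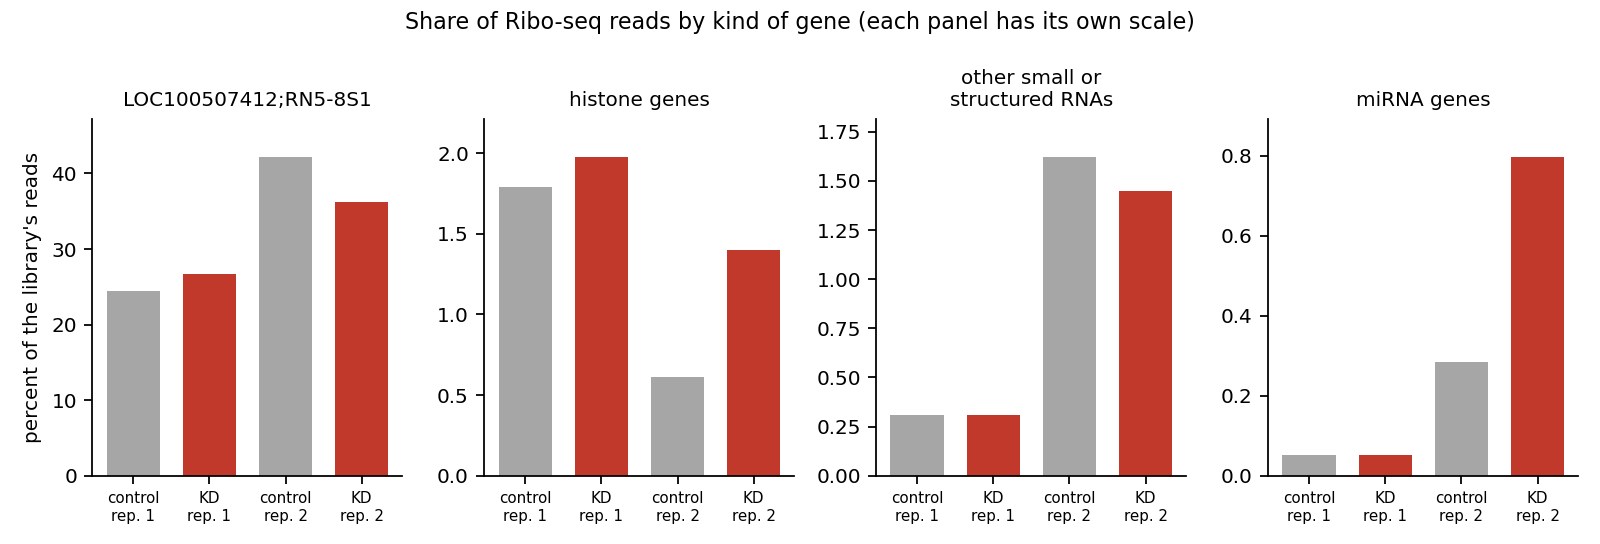
Percent of each library's reads assigned to 4 kinds of tested genes, with control in grey and KD in red and a separate linear scale from 0 in each panel. The shared entry of LOC100507412 and RN5-8S1 took 24.5% and 26.7% in replicate 1 against 42.1% and 36.2% in replicate 2, and genes named only as miRNAs, host transcripts included, took 0.285% in control and 0.796% in KD of replicate 2.

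The oxidant-response genes AKR1C1 and FTL, the p53 target CDKN1A and the imprinted noncoding RNA H19 had lower Ribo-seq levels in KD in both replicates, whereas the metallothioneins MT1E and MT1X, most tested replication-dependent histones and the tRNA synthetases WARS and CARS had higher levels. In all, 75 genes (1.54%) were higher and 114 genes (2.34%) were lower in KD by at least 1.5-fold in both replicates. None of the 4876 genes passed limma without a block (adjusted p under 0.05, 0 higher, 0%, and 0 lower, 0%). Its smallest adjusted p was 0.9997, and 16 genes had an unadjusted p under 0.05. Without KD replicate 2, limma called 6 genes higher and 7 lower, and leaving out any other library gave 0. The counts past 1.5-fold are therefore a description of 2 pairs of libraries, on a scale that understates the change of low genes.

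Each replicate alone held many more such genes. In replicate 1, 330 genes were higher and 365 lower past 1.5-fold, and in replicate 2 the numbers were 564 and 693. In opposite directions past 1.5-fold, 26 genes were higher in replicate 1 and lower in replicate 2, and 32 the other way round. A ratio of the same sign was found for 2794 genes, 1397 higher (28.7%) and 1397 lower (28.7%), and of opposite sign for 2082. The equal split follows from centring on the median, and without centring 1671 genes were higher and 916 lower in both. The ratios of both replicates correlated across the 4876 genes with Pearson's r = 0.22 and Spearman's rho = 0.22. By the lowest read number of a gene, r was 0.13 over the 494 genes with under 20 reads in some library, 0.23, 0.30, 0.32 and 0.27 in the bins from 20, 50, 100 and 200 reads, and 0.46 over the 134 genes with at least 500 reads in each. The share of genes with the same sign hardly differed between these bins, from 55.4% to 59.0%. As deposited, before centring, the median log2 ratio of all genes was -0.05 in replicate 1 and 0.29 in replicate 2. Without centring the split turned, with 124 genes higher and 63 lower past 1.5-fold in both (66.3% higher, against 39.7% with centring), so that the balance of higher and lower genes depends on the centring.

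**Figure D2:**
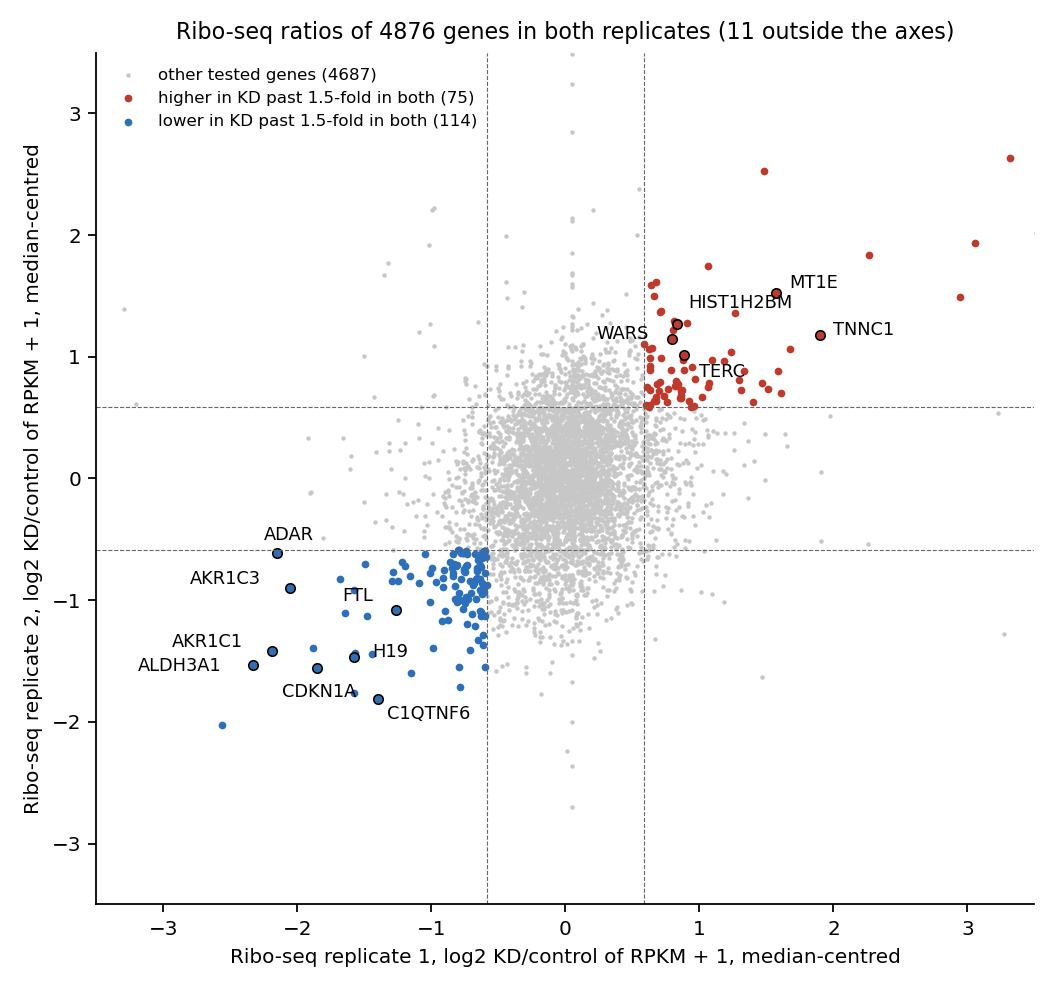
Each point is a gene, with its centred log2 KD over control ratio of RPKM + 1 in replicate 1 on the x axis and in replicate 2 on the y axis; dashed lines mark 1.5-fold and 11 genes lie outside the axes. The 75 genes higher in both (red) and 114 lower in both (blue) sit at the corners of a broad cloud with r = 0.22, and ADAR lies far to the left at -2.15 but at only -0.61 on the y axis.

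Among the genes lower in KD was CDKN1A, the p53 target that encodes the cell cycle inhibitor p21. It was at 62.4 RPKM in control and 16.0 in KD of replicate 1, and at 97.3 and 39.7 in replicate 2. Both KD libraries lay below both controls, with ratios of -1.85 and -1.56, and RNA-seq went the same way, from 172 to 55.6 RPKM. HSPB7, a small heat shock protein, likewise had both KD libraries (14.5 and 41.4 RPKM) below both controls (46.5 and 93.2). ALDH3A1, an aldehyde dehydrogenase, had ratios of -2.33 and -1.53, and C1QTNF6, a secreted C1q-related protein, was at 45.8 and 55.2 RPKM in the controls and 16.2 and 18.6 in KD. FBXO2, an F-box protein of glycoprotein disposal, was at 39.2 and 12.1 RPKM in the controls and at 9.55 and 5.09 in KD. In these 5 genes both KD libraries lay below both controls. How many of all tested genes have groups that do not overlap was not counted. The genes named here were picked by large ratios in both replicates, which makes such groups more likely. Statements on overlap, here and below, describe only the named genes. The groups did overlap in PTGS1, the cyclooxygenase COX-1 (26.1 to 10.8 RPKM in replicate 1 and 5.70 to 1.70 in replicate 2), and in the kinase MAPK4 (15.7 to 4.96 and 56.6 to 24.8), since their levels differed between replicates. DUSP2, a phosphatase of MAP kinases, was at 27.4 and 45.2 RPKM in the controls and at 8.87 and 24.7 in KD, with no overlap. Leaving out a library moved the mean log2 difference of CDKN1A from -1.70 to between -2.49 (without KD replicate 2) and -0.94 (without KD replicate 1), and that of HSPB7 from -1.50 to between -2.38 and -0.64 for the same libraries. For DUSP2 the mean went from -1.31 to between -2.15 (without KD replicate 2) and -0.48 (without KD replicate 1), and for MAPK4 from -1.44 to between -2.65 and -0.24 for the same libraries. For PTGS1 it went from -1.37 to between -2.30 (without KD replicate 1) and -0.46 (without KD replicate 2). The remaining members of the 12 lowest by their smaller ratio were AKR1C1 and H19, described further on, and the little-known LOC100271831 and C19orf71, which had 0 and 1 reads in KD replicate 1 and for which no fold is given.

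Targets of NRF2, the transcription factor of the oxidant response, were mostly lower. Of 27 listed genes 22 were tested. Of these 16 were lower and 1 higher in both replicates, and 5 were lower past 1.5-fold in both and 0 higher. For this and the lists below, the shares over all tested genes were 28.7% lower and 28.7% higher in both. Past 1.5-fold in both they were 2.34% and 1.54%. The median ratio of the list was -0.67 in replicate 1 and -0.22 in replicate 2, against 0 over all genes. Without centring the median in replicate 2 was 0.06, against 0.29 over all genes. Then 10 of the 22 were lower in both, 3 of them past 1.5-fold, against 916 and 63 of all 4876 genes. The sign of the list's median in replicate 2 thus depends on the centring, while the median stayed below that of all genes. AKR1C1, an aldo-keto reductase of steroids, was at 167 and 34.6 RPKM in replicate 1 and at 11.1 and 4.52 in replicate 2. AKR1C3, its paralog, was at 267 and 61.5 RPKM and at 42.4 and 27.3, and EPHX1, the microsomal epoxide hydrolase, at 234 and 106 and at 50.2 and 33.4. Within each replicate KD was below control for all 3, but the levels of the replicates lay so far apart that the groups overlapped. For AKR1C1 the mean log2 difference was -0.23 without control replicate 1 and -3.39 without control replicate 2. The AKR1C genes are near-identical copies, and reads that could not be placed uniquely were not counted. FTL, the ferritin light chain, was at 263 and 105 RPKM in replicate 1 and at 1842 and 1064 in replicate 2, with ratios of -1.26 and -1.08; without KD replicate 1 its mean log2 difference was 0.63. The most abundant member, the peroxidase PRDX1, was at 1771 and 1058 RPKM in replicate 1 and at 469 and 557 in replicate 2, and without control replicate 1 its mean log2 difference was 0.27.

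The p53 list gave 10 tested genes of 23, of which 8 were lower and 0 higher in both replicates, with medians of -0.65 and -0.37; CDKN1A and DDB2, a DNA damage recognition protein, passed 1.5-fold in both and none was higher. DDB2 was at 30.4 and 17.3 RPKM in replicate 1 and at 16.9 and 12.4 in replicate 2. Without centring 6 of the 10 were lower in both, 1 past 1.5-fold since DDB2 did not pass, and the median in replicate 2 was -0.09. Of 8 tested iron genes only FTL passed 1.5-fold in both. The medians were -0.39 and -0.13, and the sign in replicate 2 turned without centring, to 0.16 against 0.29 over all genes. Among 10 tested selenoprotein genes only GPX4, the peroxidase of lipid hydroperoxides, was lower past 1.5-fold in both, at 69.2 and 32.7 RPKM in replicate 1 and at 117 and 83.2 in replicate 2, and the medians were -0.08 and -0.41. Without centring 0 of the 10 passed, and without KD replicate 1 the mean log2 difference of GPX4 was -0.09. The most abundant of these, the thioredoxin reductase TXNRD1 (sharing its entry with EID3), was at 66.8 and 68.4 RPKM and at 116 and 113.

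Among the genes higher in KD were the metallothioneins, small cysteine-rich proteins that bind zinc and copper. MT1E was at 53.6 RPKM in control and 156 in KD of replicate 1, and at 26.2 and 94.5 in replicate 2, which put both KD libraries above both controls, with ratios of 1.57 and 1.53. MT1X was at 27.3 and 67.0 RPKM and at 30.5 and 62.8, and MT2A at 158 and 336 and at 129 and 203, again with no overlap. All 3 tested of 11 listed metallothioneins were higher in both replicates, MT1E and MT1X past 1.5-fold in both, and the medians were 1.31 and 0.73. Metallothionein genes are close copies of each other, and MT1X rested on 11 reads in control replicate 1.

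Other genes at the top of the list were TNNC1, the calcium-binding troponin C of slow muscle, at 23.1 and 85.9 RPKM in replicate 1 and at 12.1 and 35.2 in replicate 2, and ATP6AP1, an accessory subunit of the vacuolar proton pump, at 72.7 and 161 and at 39.3 and 94.9. YWHAH, a 14-3-3 adaptor protein, was at 32.1 and 79.7 RPKM in replicate 1 and at 23.5 and 54.2 in replicate 2. PPID, a cyclophilin that assists HSP90, was at 17.5 and 32.6 RPKM and at 6.24 and 20.4; FAR1, a fatty acyl-CoA reductase, at 8.38 and 18.4 and at 4.51 and 12.2. In TNNC1, ATP6AP1, YWHAH, PPID and FAR1 both KD libraries were above both controls. The share of all tested genes that do so was not counted, and these genes too were picked by large ratios in both replicates. CSTF3, a cleavage factor of pre-mRNA 3′ ends, had ratios of 0.95 and 0.91. TERC, the RNA template of telomerase, was at 506 and 905 RPKM and at 152 and 377, and LACTB, a mitochondrial protease, at 11.2 and 20.9 and at 2.52 and 6.97. In TERC, CSTF3 and LACTB the groups overlapped, because KD replicate 2 was below control replicate 1. Leaving out a library moved the mean log2 difference of TERC from 0.95 to between 0.40 and 1.49. That of CSTF3 went from 0.93 to between 0.51 and 1.33, and that of LACTB from 0.89 to between 0.30 and 1.47. The spliceosome protein SNRNP27, the noncoding LINC00263 and the pseudogene RPL23P8 completed the 12 and had 8, 3 and 5 reads in control replicate 1. FAR1, CSTF3, LACTB, SNRNP27, LINC00263 and RPL23P8 reached the minimum level only through KD.

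**Figure D3:**
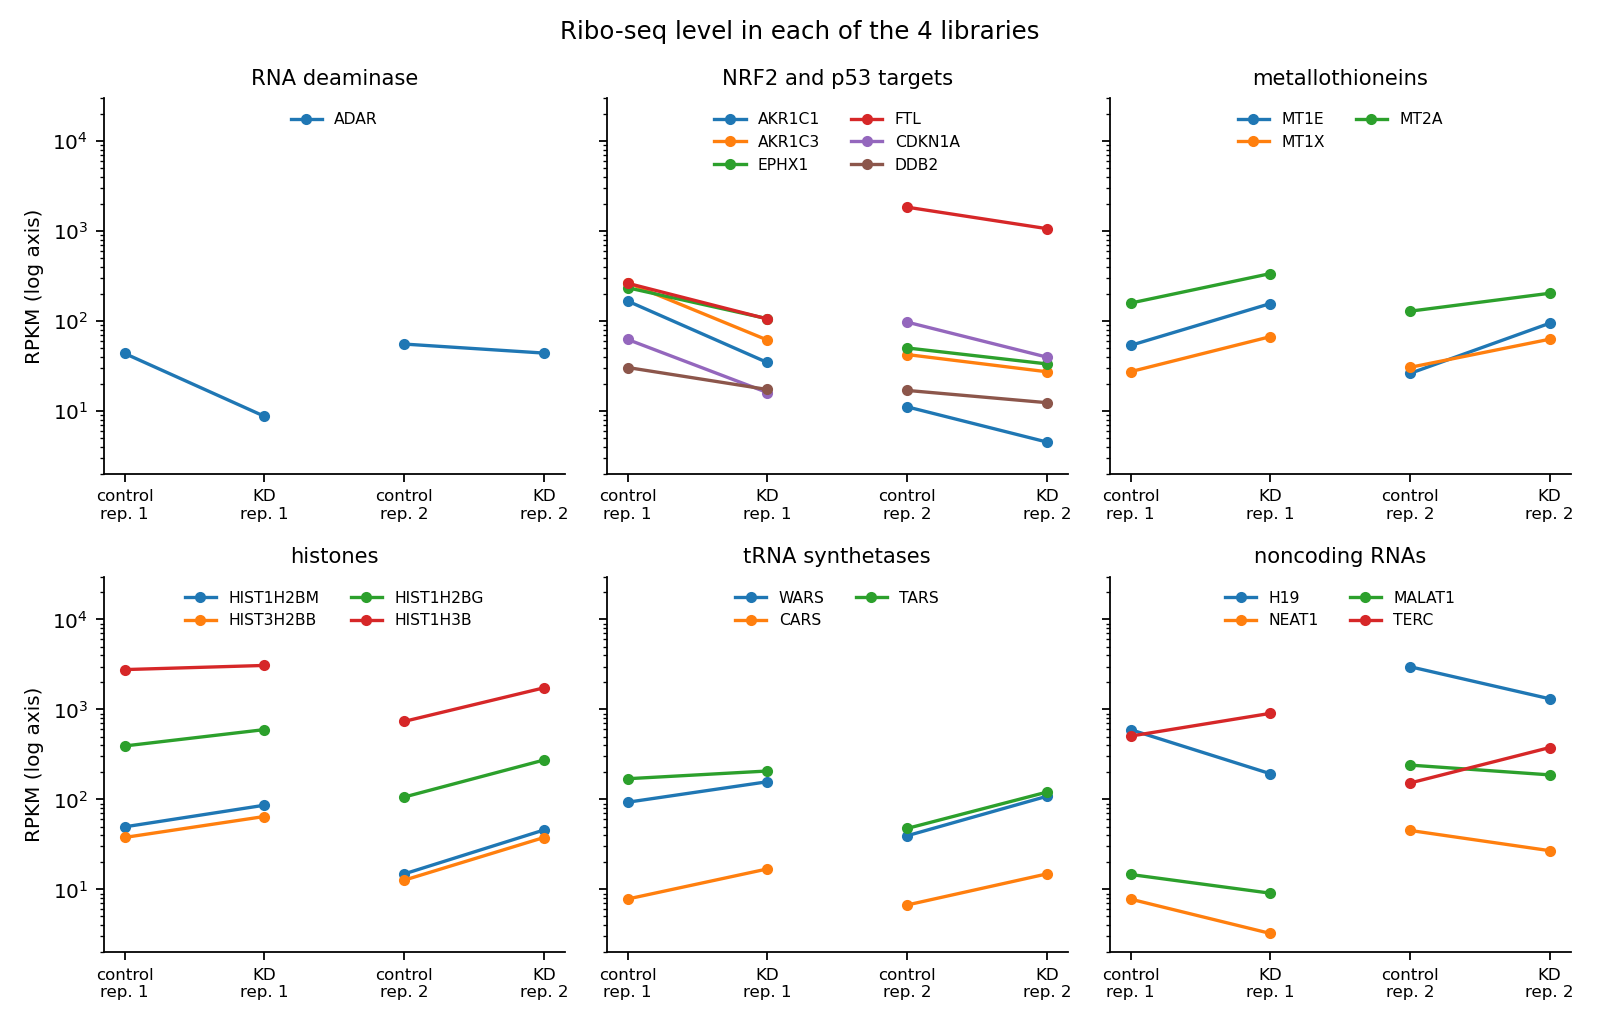
RPKM of named genes in each of the 4 Ribo-seq libraries on a log axis, with a line joining control and KD of the same replicate and no error bars because each point is 1 library. MT1E, MT1X and MT2A lie higher in KD in both replicates, CDKN1A lies lower in both, and ADAR goes from 43.6 to 8.73 RPKM in replicate 1 but from 55.5 to 44.0 in replicate 2.

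Replication-dependent histone genes, which supply histones in S phase, mostly had higher levels in KD. Of 65 listed genes 48 were tested, of which 41 were higher and 0 lower in both replicates, and 7 were higher and 0 lower past 1.5-fold in both. Over all tested genes these shares were 28.7% and 28.7%, and 1.54% and 2.34%. KD was above control for 42 of the 48 in replicate 1, with a median ratio of 0.26, and for 47 of the 48 in replicate 2, with a median of 0.95; without centring 40 were higher in both, 5 past 1.5-fold, and the medians were 0.22 and 1.24. Histone genes took 1.79% and 1.97% of the reads in control and KD of replicate 1 and 0.614% and 1.40% in replicate 2. HIST1H3B, the most abundant, was at 2773 and 3083 RPKM in replicate 1 and at 736 and 1737 in replicate 2, so that it was higher in KD within each replicate while the groups overlapped; without control replicate 2 its mean log2 difference was -0.07. HIST1H2BM was at 49.5 and 86.2 RPKM in replicate 1 and at 14.8 and 45.7 in replicate 2, and HIST1H2BG at 393 and 597 and at 106 and 274. HIST3H2BB, at 37.8 and 64.6 RPKM and at 12.7 and 37.7, and HIST1H2BL, at 184 and 277 and at 52.5 and 123, were also past 1.5-fold in both. Histone copies are so alike that reads common to several of them cannot be assigned to 1 gene.

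These mRNAs end in a stem-loop in place of a poly-A tail. In RNA-seq HIST1H3B was at only 5.67 RPKM in control and 5.19 in KD, and the cause was not tested. The stem-loop was looked for, with a free base in each arm of the stem, on the transcribed strand of GENCODE transcripts on GRCh37 by gene name. The 48 tested entries hold 49 names, since HIST1H2AD and HIST1H3D share an entry, and 46 of the names had a matching transcript. The motif was found in 35 of the 46 (76.1%), against 58 of all 62296 genes (0.0931%). It is shown for 4 of the genes with a ratio past 1.5-fold in a replicate, with the motif in capitals and 5 bases on either side, since it is the element the group shares. The motifs lie in the 3′ untranslated region at chr6:27783247-27783262 on the plus strand for HIST1H2BM, chr6:27775262-27775277 on the minus strand for HIST1H2BL, chr6:26031825-26031840 on the minus strand for HIST1H3B and chr1:228646239-228646254 on the plus strand for HIST3H2BB.
HIST1H2BM: ccaaaGGCTCTTTTCAGAGCCgtcca
HIST1H2BL: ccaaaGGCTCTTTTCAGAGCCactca
HIST1H3B: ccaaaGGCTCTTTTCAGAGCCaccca
HIST3H2BB: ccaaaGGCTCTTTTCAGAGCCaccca
The motif is the same run of letters in these 4 genes.

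Other genes of dividing cells pointed mostly the same way with smaller ratios. Of 54 tested cell cycle and DNA replication genes 29 were higher and 4 lower in both replicates, with medians of 0.08 and 0.32, and none passed 1.5-fold in both (2 without centring). By sign alone, 28.7% of all tested genes were higher and 28.7% lower in both. RRM1, the large subunit of ribonucleotide reductase, had the highest level, at 789 and 801 RPKM in replicate 1 and at 199 and 359 in replicate 2, and without control replicate 2 its mean log2 difference was -0.37. Among heat shock proteins and chaperonins 18 of 24 were higher and 1 lower in both, with medians of 0.10 and 0.54, and HSP90AA1, the inducible HSP90, passed 1.5-fold in both at 147 and 235 RPKM and at 51.5 and 126. The chaperonin subunit CCT3, the most abundant, was at 689 and 636 RPKM and at 170 and 290.

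Genes that act on double-stranded RNA and interferon genes were mostly higher in KD replicate 1, and in replicate 2 they had medians close to or below that of all genes. Of 22 sensor and signalling genes 9 were tested; 8 were higher in replicate 1 and 3 in replicate 2, with medians of 1.03 and -0.18 (0.99 and 0.11 without centring, so that the sign in replicate 2 turned but the median stayed below that of all genes). In both replicates 3 were higher and 1 lower, against 28.7% and 28.7% of all tested genes, and 0 passed 1.5-fold. Without centring 6 of the 9 were higher in replicate 2, against 3454 of all 4876 genes, 6 in both and 3 past 1.5-fold in both. EIF2AK2, which encodes PKR, was at 10.2 and 24.9 RPKM and at 6.09 and 10.2, while OAS1, a synthetase of the messenger that activates RNase L, was at 25.8 and 58.0 and at 5.14 and 2.72; these were picked after their values were seen. Of 48 interferon-stimulated genes 13 were tested; 12 were higher in replicate 1 and 7 in replicate 2, with medians of 0.72 and 0.02, 7 were higher in both and 1 lower, and 0 passed 1.5-fold in both. Without centring the median in replicate 2 was 0.31, close to that of all genes, 11 were higher there, 10 were higher and 0 lower in both, and 3 passed 1.5-fold in both. IFITM3 (an interferon-induced membrane protein that blocks virus entry, picked after its values were seen) was at 401 and 809 RPKM in replicate 1 and at 211 and 339 in replicate 2. B2M, which encodes beta-2-microglobulin and was the most abundant, was at 1865 and 1969 RPKM and at 318 and 554; without control replicate 2 its mean log2 difference was -0.65. ADAR itself was 80.0% lower in replicate 1 and 20.6% lower in replicate 2; whether the lists differed between the replicates was not tested. Of 15 RNA deaminases the only other gene tested was APOBEC3C, a cytidine deaminase, at 49.8 and 28.2 RPKM in replicate 1 and at 19.5 and 24.7 in replicate 2; ADAR alone passed 1.5-fold in both and the medians of this pair were -1.45 and -0.29. As deposited, without centring, and with equal library sums 0 of the pair passed.

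**Figure D4:**
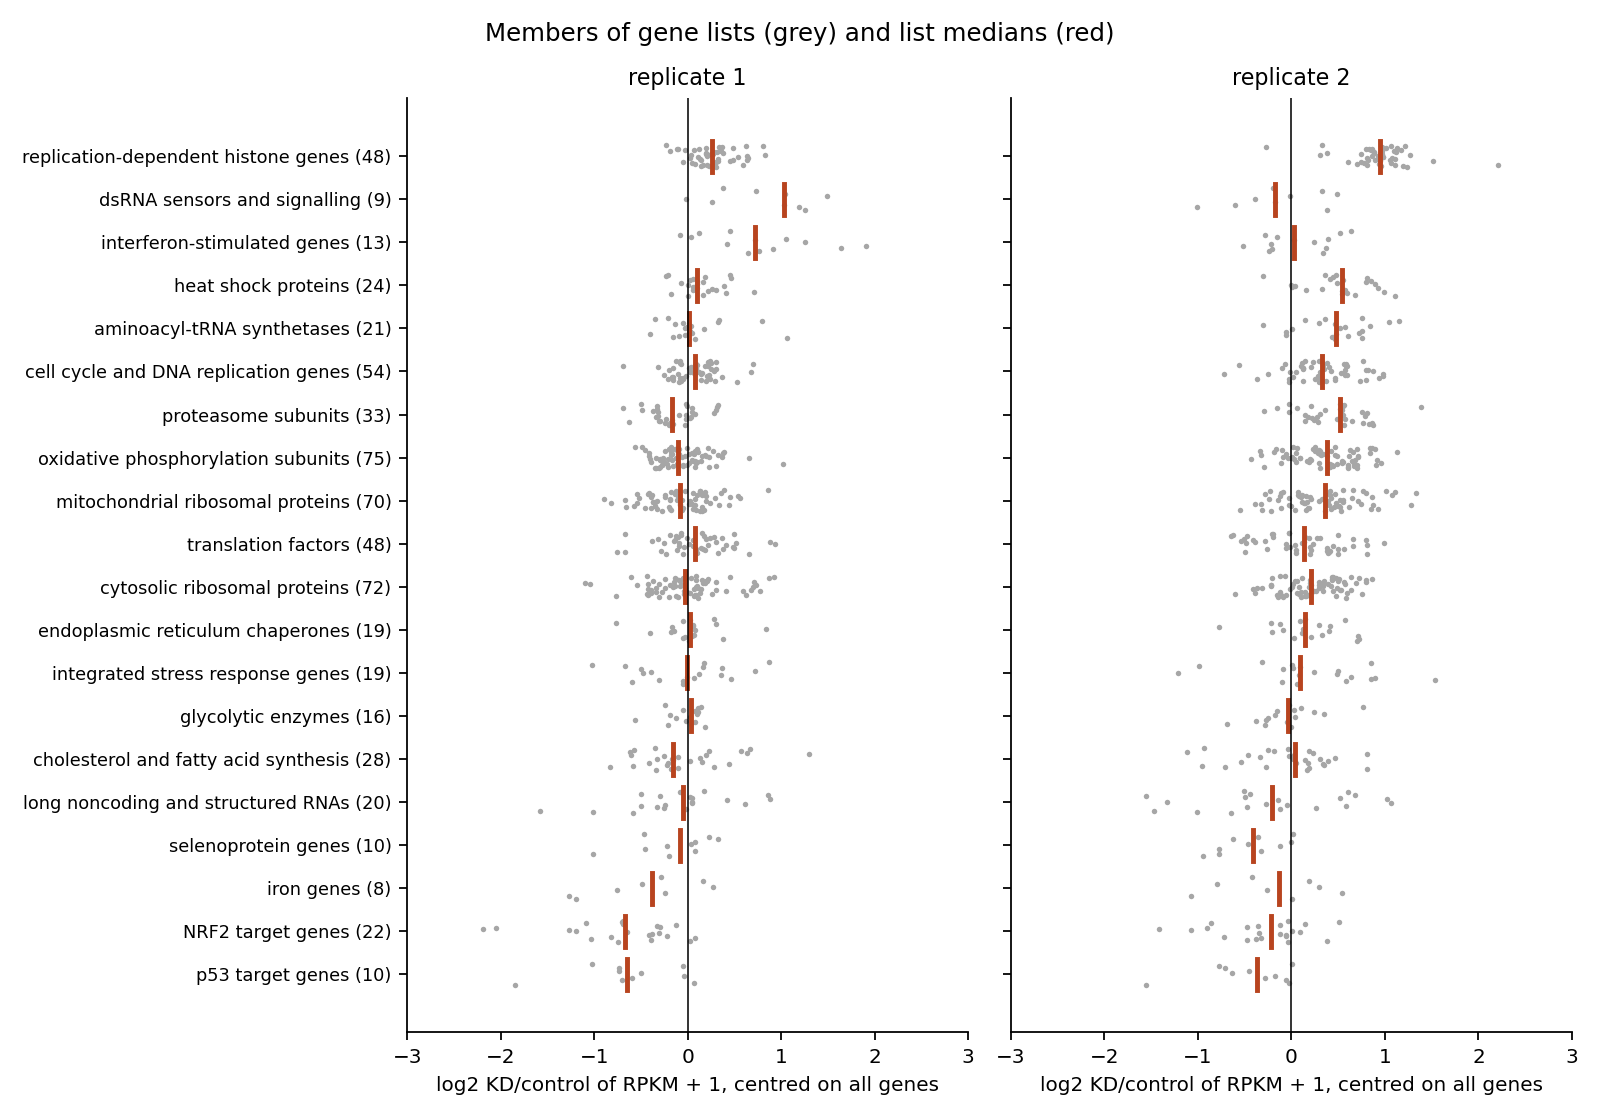
Centred log2 KD over control ratio of RPKM + 1 of each tested member (grey points) of the gene lists with at least 8 tested members, with the list's median in red, in replicate 1 (left) and replicate 2 (right); the number of members stands in parentheses. Histone genes lie to the right in both panels (0.26 and 0.95), p53 targets to the left in both (-0.65 and -0.37), and sensors of double-stranded RNA lie to the right in replicate 1 (1.03), with a median of -0.18 in replicate 2.

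The machinery of translation stayed close to the median of all genes in replicate 1. Among 72 tested cytosolic ribosomal proteins the median ratio was -0.03 in replicate 1 and 0.21 in replicate 2, 27 were higher and 11 lower in both, and 4 were higher past 1.5-fold in both: RPL39, RPL26, RPL41 and FAU. Without control replicate 1 the mean log2 difference of RPL39 was -0.27. RPL26 was at 84.6 and 135 RPKM in replicate 1 and at 111 and 236 in replicate 2, and FAU, a ribosomal protein made as a fusion with a ubiquitin-like domain, at 335 and 520 and at 245 and 466. The ribosomal protein with the highest level, RPS21, was at 639 and 615 RPKM and at 1427 and 1868. Of 48 initiation and elongation factors 20 were higher and 12 lower in both, against 28.7% and 28.7% of all tested genes. Their medians were 0.08 and 0.14, and none passed 1.5-fold in both. The elongation factor EEF2 (sharing its entry with SNORD37) was at 452 and 496 RPKM and at 1118 and 869.

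Aminoacyl-tRNA synthetases, which charge tRNAs with amino acids, had medians of 0.01 and 0.47, with 9 of 21 higher and 1 lower in both. Among all tested genes 28.7% were higher and 28.7% lower in both. Without centring the median of the synthetases in replicate 1 was -0.03. WARS, for tryptophan, was at 93.1 and 157 RPKM in replicate 1 and at 39.4 and 108 in replicate 2, and CARS, for cysteine, at 7.82 and 16.9 and at 6.71 and 14.9; these passed 1.5-fold in both, and both KD libraries were above both controls. TARS, for threonine and the most abundant, was at 170 and 207 RPKM and at 47.5 and 121. The integrated stress response list, which shares amino acid genes with this theme, had 8 of 19 genes higher and 4 lower in both and medians of -0.01 and 0.09; only NUPR1, a stress-induced chromatin protein, passed 1.5-fold in both, at 42.9 and 25.8 RPKM and at 74.9 and 45.6. The amino acid transporter SLC7A5, the most abundant there, was at 195 and 136 RPKM and at 343 and 181. Leaving out a library moved the mean log2 difference of NUPR1 from -0.83 to between -1.54 and -0.13. That of SLC7A5 went from -0.84 to between -1.57 and -0.12.

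Several lists had medians below 0 in replicate 1 and above it in replicate 2. This held for mitochondrial ribosomal proteins (70 tested, -0.08 and 0.36; 25 higher and 11 lower in both), oxidative phosphorylation subunits encoded in the nucleus (75, -0.10 and 0.38; 23 and 7) and proteasome subunits (33, -0.17 and 0.52; 9 and 4). DAP3, a mitochondrial ribosomal protein at 32.2 and 57.5 RPKM and at 16.8 and 33.4, and NDUFB3, of respiratory complex I, at 23.2 and 46.7 and at 23.2 and 46.0, were the only members past 1.5-fold in both, and none was lower. Over all tested genes 1.54% were higher and 2.34% lower past 1.5-fold in both, and 28.7% and 28.7% by sign alone. The most abundant members were MRPS34, at 148 and 132 RPKM and at 132 and 138, ATP5B of the ATP synthase, at 1012 and 830 and at 435 and 631, and the proteasome subunit PSMB4, at 663 and 548 and at 209 and 359.

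Genes of cholesterol and fatty acid synthesis had 7 of 28 higher and 8 lower in both, near the shares over all genes (28.7% and 28.7%). Their medians were -0.16 and 0.04. STARD4, a sterol carrier, was higher past 1.5-fold in both (6.22 to 16.2 RPKM in replicate 1 and 6.96 to 16.0 in replicate 2), and MVK, mevalonate kinase (26.6 to 14.1 and 22.1 to 16.2), and SREBF2, the transcription factor of sterol synthesis (49.6 to 31.1 and 84.3 to 46.9), were lower, though MVK did not pass without centring. Leaving out a library moved the mean log2 difference of SREBF2 (sharing its entry with MIR33A) from -0.87 to between -1.56 and -0.18. That of STARD4 went from 1.05 to between 0.66 and 1.43. EBP, a sterol isomerase and the most abundant, was at 452 and 391 RPKM and at 171 and 211. Endoplasmic reticulum chaperones (19 tested, medians 0.02 and 0.15, 9 higher and 3 lower in both) and glycolytic enzymes (16 tested, 0.03 and -0.04, 5 and 6) had 0 members past 1.5-fold in both. Without centring their medians were -0.02 and -0.01 in replicate 1 and 0.43 and 0.25 in replicate 2. The sign of the glycolytic median thus turned in replicate 2, where 14 of the 16 were then higher. Over all genes the median there was 0.29, and 3454 of 4876 were higher. CALR, the calcium-binding chaperone calreticulin, was at 707 and 661 RPKM and at 372 and 461, and GAPDH at 2058 and 1744 and at 915 and 985, which is lower in both after centring but 0.08 as a mean log2 difference without control replicate 1. Of 6 genes that the study names for edited 3′ untranslated regions 4 were tested, F11R, PSMB2, BPNT1 and PAICS; 1 was higher in both, 0 passed 1.5-fold in both, and the medians were 0.00 and 0.19. PAICS, of purine synthesis, was at 73.1 and 66.4 RPKM and at 36.3 and 58.5. The study chose these genes on samples of this series.

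Noncoding RNAs also gave reads, and whether these came from ribosomes was not tested. Of 20 tested long noncoding and structured RNAs 4 were higher and 8 lower in both, and 2 were higher and 3 lower past 1.5-fold in both. Over all tested genes these shares were 28.7% and 28.7%, and 1.54% and 2.34%. The medians of the list were -0.05 and -0.20. Without centring the latter was 0.08, against 0.29 over all genes, and 2 were lower past 1.5-fold. H19, the imprinted noncoding RNA that holds the hairpin of MIR675, on the minus strand of chr11:2016396-2025782, was at 597 and 193 RPKM in replicate 1 and at 2985 and 1313 in replicate 2, from 1371, 626, 22890 and 7290 reads. Within each replicate KD was below control, with ratios of -1.58 and -1.47, and the level in replicate 2 was above that in replicate 1 throughout. Without KD replicate 1 the mean log2 difference of H19 was -0.00, and without KD replicate 2 it was -3.06. NEAT1, the scaffold of paraspeckles, was at 7.80 and 3.24 RPKM and at 45.2 and 26.9, and MALAT1, a nuclear speckle RNA, at 14.6 and 9.08 and at 241 and 187. VTRNA1-3, a vault RNA, was the other gene besides TERC that was higher past 1.5-fold in both, at 91.3 and 162 RPKM and at 1512 and 2962, with 8 reads in control replicate 1. The shared entry of LOC100507412 and RN5-8S1, the highest in the list, was at 15020 and 16369 RPKM and at 25855 and 22236. Because the replicates differed so much in level, the sign turned when a library was left out: without control replicate 2 the mean log2 difference was 0.49 for NEAT1 and 1.66 for MALAT1, and without control replicate 1 it was -1.56 for VTRNA1-3.

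Hairpins of miRNAs, the precursors from which mature miRNAs are cut, were examined after their values were seen. Of 460 hairpin genes whose values gave whole reads, 105 had reads, summing to 344 reads in control and 453 in KD of replicate 1 (0.0345% and 0.0323% of the library) and to 5171 and 11116 in replicate 2 (0.156% and 0.462%). The share of reads was thus 0.934 times that of control in KD replicate 1 and 2.97 times in KD replicate 2. Of the 47 tested hairpins with at least 20 reads in replicate 2, 45 were higher in KD, 37 of them past 1.5-fold, and 0 were lower past 1.5-fold, with a median ratio of 1.27; of the 6 with such depth in replicate 1, 3 were higher, 1 of them past 1.5-fold, 2 were lower past 1.5-fold, and the median was -0.17. The difference between the replicates was not tested. MIR21, the most abundant, had 146 and 216 reads in replicate 1 and 1352 and 2531 in replicate 2; MIR27A had 29 and 20 and then 174 and 716, and MIR23A, from the same cluster, 12 and 24 and then 124 and 570. MIR29B1 was listed at 0 in both libraries of replicate 1 and had 273 and 770 reads in replicate 2. Mature sequences of these hairpins from RefSeq (GRCh38.p14) are given with the seed, bases 2 to 8, in capitals, since the seed is the part that pairs with target mRNAs; the deposited table does not say from which arm of a hairpin the reads came, and the 3p arm is shown for the last 3.
miR-21-5p: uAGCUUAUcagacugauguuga
miR-27a-3p: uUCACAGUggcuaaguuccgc
miR-23a-3p: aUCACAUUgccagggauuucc
miR-29b-3p: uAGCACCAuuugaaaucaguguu
Entries that name several genes were not searched for seeds. Among hairpins with reads and an entry of their own, AGCACCA was shared by 4 genes: MIR29A, MIR29B1, MIR29B2 and MIR29C.

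The study made both RNA-seq and Ribo-seq to relate structural change in 3′ untranslated regions to the control of protein expression. Here RNA-seq was set beside Ribo-seq gene by gene. Leaving small RNAs aside, 64 genes were higher past 1.5-fold in both Ribo-seq replicates, and 52 of them were higher in RNA-seq too, 22 past 1.5-fold; of 112 lower genes 88 were lower in RNA-seq, 42 past 1.5-fold. Over all 4876 genes RNA-seq had 178 higher and 195 lower past 1.5-fold. The median RNA-seq ratio was 0.35 for the higher genes and -0.39 for the lower, against Ribo-seq medians of 0.84 and 0.80 for the higher and -0.78 and -0.86 for the lower. Across all genes the ratios of Ribo-seq replicate 1 followed those of RNA-seq with Spearman's rho = 0.49, and those of replicate 2 with rho = 0.05. RNA-seq has 1 library per condition and both Ribo-seq replicates were set against it, so that the difference between the assays, the change in translational efficiency, has no replicate check and was not tested.

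**Figure D5:**
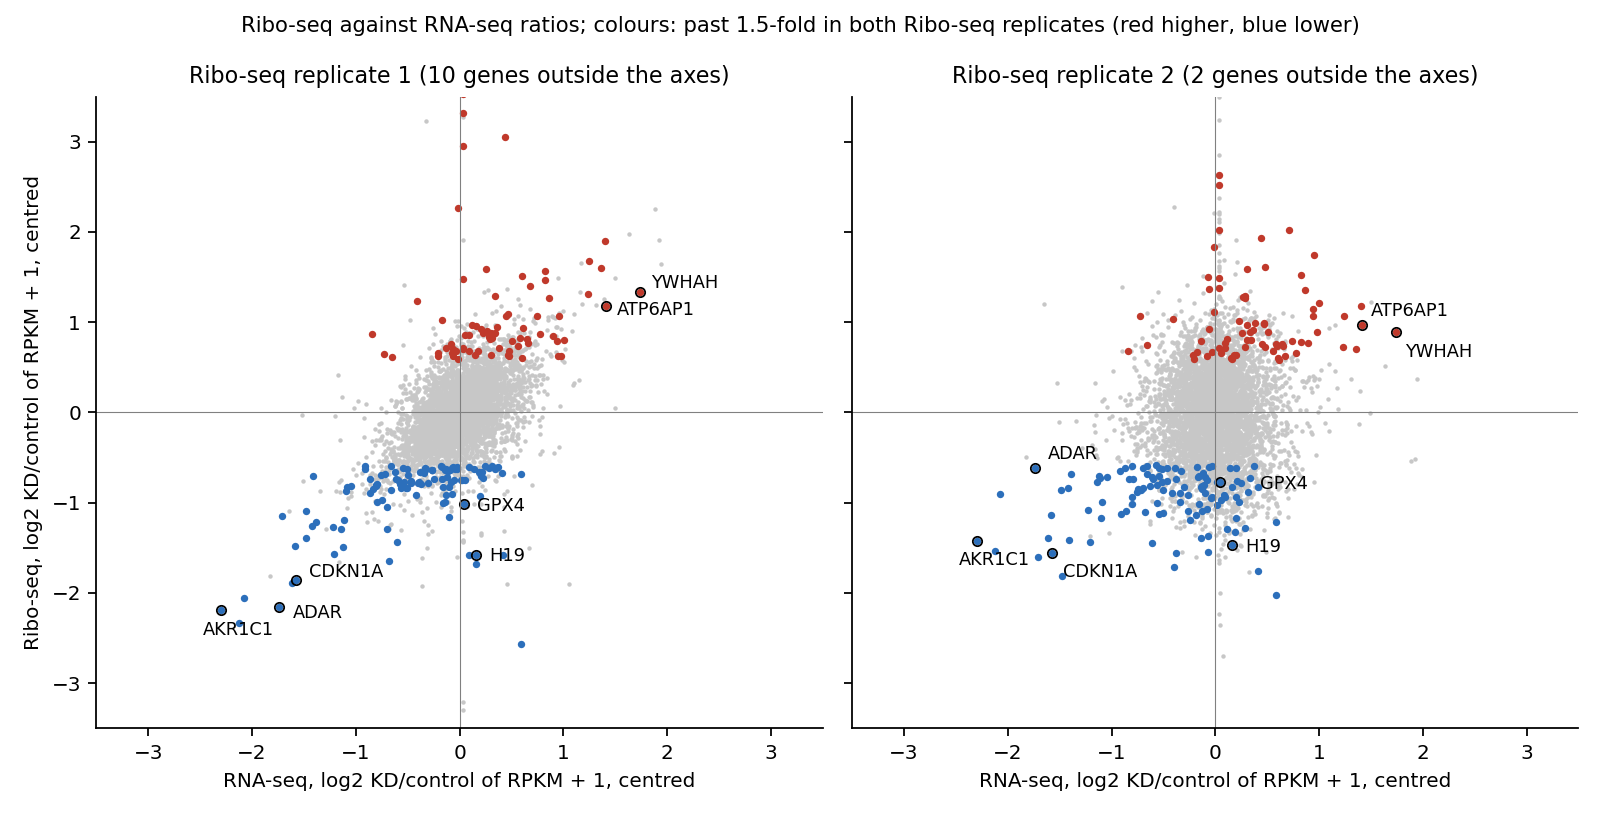
Centred log2 KD over control ratio of RPKM + 1 in RNA-seq (x axis) against Ribo-seq replicate 1 (left) and replicate 2 (right) for the 4876 tested genes; red and blue points are the 75 higher and 114 lower genes past 1.5-fold in both Ribo-seq replicates, and 10 and 2 genes lie outside the axes. The cloud is tilted in replicate 1 (rho = 0.49) and upright in replicate 2 (rho = 0.05), and H19 and GPX4 lie low near the middle of the x axis.

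Some genes had Ribo-seq ratios that RNA-seq did not share. H19 was at 10738 RPKM in control and 11734 in KD in RNA-seq, a ratio of 0.16, and the Ribo-seq ratio minus the RNA-seq ratio was -1.74 and -1.63. Because H19 is noncoding, its difference is not read as a change in translational efficiency. GPX4 was at 474 and 478 RPKM in RNA-seq, which gave differences of -1.06 and -0.82. By contrast the RNA-seq ratio of CDKN1A was -1.58, with differences of -0.27 and 0.02, and that of C1QTNF6 was -1.48, with 0.08 and -0.33. YWHAH had an RNA-seq ratio of 1.74 and differences of -0.41 and -0.85, and NDUFB3, at 17.3 and 14.9 RPKM in RNA-seq, had 1.19 and 0.84. Levels in PARS-seq, given as the authors' mean over the S1 and V1 libraries of a replicate, moved past 1.5-fold in both replicates in the same direction for 27 of the 64 higher and 48 of the 112 lower genes; over all tested genes this held for 260 (5.33%) and 363 (7.44%). CDKN1A was at 424 and 447 in the PARS-seq controls and at 53.4 and 59.6 in KD, and MT1E at 51.4 and 44.0 in the controls and at 148 and 186 in KD.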

How the data were processed

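The authors aligned Ribo-seq and RNA-seq reads to hg19 with Bowtie2 in local mode (cutadapt is named in the submitters' processing notes), kept reads with a unique position and, after counting with coverageBed over RefSeq gene models, deposited RPKM. PARS-seq values deposited in the same table are the authors' mean of other libraries, those digested with S1 and V1, and were given beside the results without a test. All 4 Ribo-seq columns and the RNA-seq and PARS-seq columns carried names that matched the labels in assay and condition, and 0 columns of other samples were present. The names of the Ribo-seq columns taken as replicate 1 hold no replicate number, whereas those of the other replicate do. A gene entry may name several overlapping genes (1243 of 21574) and was kept as 1 feature. The counting command printed in the paper sets no strand option, so antisense partners cannot be told apart.

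From these, log2(RPKM + 1) was computed for the 4876 genes whose mean reached 10 RPKM, and each replicate's KD over control ratio was centred on its median. A gene near this limit could be kept only through the condition where it was higher. This was so through KD for CARS, FAR1, STARD4, EIF2AK2, CSTF3, LACTB, SNRNP27, LINC00263 and RPL23P8. Through control it was so for ALDH3A1, FBXO2, PTGS1, LOC100271831 and C19orf71. Limma 3.58.1 (R 4.3.3, trended variance, no block, Benjamini-Hochberg over 4876 genes) compared 2 KD with 2 control libraries; the study's methods used a count test, whereas the test here was fixed on the deposited RPKM before reads were recovered, and no count test was run. Reads were recovered from RPKM by the shortest gene length that gave whole numbers within 0.01 reads in all Ribo-seq and RNA-seq libraries, anchored on RefSeq hairpin lengths; this worked for 4876 of 4876 genes, and where all read numbers share a factor it gives a lower bound. Of 59 tested hairpins 52 gave their RefSeq length and 6 a whole fraction of it, and the RefSeq length was then used. Counting errors cover counting only. In replicate 1, 410 and 266 tested genes had under 20 reads in control and KD, and in replicate 2, 114 and 84.

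Genes were named by rule: ADAR, the 12 highest and 12 lowest by the smaller ratio among those past 1.5-fold in both replicates, small RNAs left out, up to 4 members of each list in each direction past 1.5-fold, and each list's most abundant member. The members and lists were chosen with earlier results of these data known. Alternatives covered the pseudocount, the minimum level, the centring, entries naming 1 gene, the fold, the adjusted p, the variance trend, a replicate block and each library left out. The procedure was tested on simulated data. Python 3.11.15 with numpy 2.4.6, pandas 2.3.3, scipy 1.17.1 and matplotlib 3.10.9 was used.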

Additional observations from a re-analysis of the deposited data

Results flagged for a closer look

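For 3 genes both Ribo-seq replicates moved past 1.5-fold in a direction opposite to that of both PARS-seq replicates; the difference between the assays was not tested. They were chosen after their values were seen, among genes with more than 3 reads in each Ribo-seq library. NEAT1, the scaffold RNA of paraspeckles, was at 7.80 and 3.24 RPKM in control and KD of Ribo-seq replicate 1 and at 45.2 and 26.9 in replicate 2 (ratios of -1.01 and -1.01), while in PARS-seq the authors' means were 199 and 529 in replicate 1 and 340 and 787 in replicate 2 (1.47 and 1.18). The mean log2 ratio of Ribo-seq was lower than that of PARS-seq by a difference of -2.34. CBX6, a Polycomb chromodomain protein, was at 13.8 and 8.06 RPKM and at 39.3 and 26.7 in Ribo-seq (-0.67 and -0.83) and at 4.54 and 8.88 and at 4.21 and 7.13 in PARS-seq (0.89 and 0.61), a difference of -1.50. Without centring CBX6 did not pass 1.5-fold in Ribo-seq replicate 2. MIR148A, a miRNA hairpin, had 4 and 9 reads in Ribo-seq replicate 1 and 16 and 37 in replicate 2 (0.71 and 1.38), and was at 10.6 and 2.98 and at 5.35 and 1.14 in PARS-seq (-1.48 and -1.59), a difference of 2.58. In RNA-seq NEAT1 was at 184 and 161 RPKM, CBX6 at 19.1 and 25.1, and MIR148A was listed at 0 in both conditions.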

How the results depend on the processing

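With the replicate number as a block, limma called 10 genes higher and 17 lower (517 with an unadjusted p under 0.05). Control and KD share only a replicate number in the labels. The ratios were taken within that number, limma used no block, and the correlation of the deviations of same-numbered libraries was 0.88. Leaving out each library in turn gave 0 to 6 genes higher and 0 to 7 lower, the 6 and 7 without KD replicate 2; the lone library of an arm was then assumed to vary like the others. Every other alternative fitted with limma gave 0 and 0.

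Counts past 1.5-fold in both replicates (75 higher, 114 lower) came to 44 and 54 with a pseudocount of 5, 211 and 284 with a minimum mean of 1 RPKM, 32 and 39 with a minimum of 30, 267 and 258 with no filter, and 124 and 63 with no centring. The lower planned fold threshold gave 324 and 380, and the 2-fold threshold gave 13 and 17. With at least 20 reads in each library, an alternative chosen after seeing the data, 44 were higher and 88 lower. The other added alternatives, leaving out genes at 0 in some library and leaving out small RNAs, stayed within 1.5 times the counts. Genes with the same sign in both replicates numbered 5942, 1154 and 7001 with a minimum of 1, of 30 and no filter, where other numbers of genes are tested. For the remaining moves the cause was not tested.

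Of the 24 highest and lowest genes 23 kept the sign of their mean in every alternative; C19orf71 turned when a library was left out. Of 74 named genes 48 kept it in every alternative, and 70 where no library was left out. Of 660 list values under an alternative 82 moved. Depth limits genes with few reads: 494 tested genes had under 20 reads in some library and 75 were at 0 in some library.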
